A study of Mus musculus with 18 samples.

Results

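The small nucleolar RNAs (snoRNAs) that the arrays resolved were examined in visceral fat (white adipose tissue, WAT) of diabetic, bezafibrate-treated and control mice. The probe sets were taken whose only gene symbol begins with Snord or Snora and a digit, and where a symbol had more than 1 such probe set, the one selected on the highest mean signal over the 18 arrays was kept. This gave 51 snoRNAs, 31 of the box C/D class (Snord) and 20 of the H/ACA class (Snora), among 19938 genes. No difference between groups was used to choose single snoRNAs, but the class as a whole was taken up after its values in these comparisons had been seen, so counts over the class are descriptions. A further 41 probe sets carry a snoRNA symbol together with other symbols and were left out of the 51.

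Each of the 18 arrays held the RNA of 1 mouse. The animals were male wildtype C57BL/6N mice of 5 to 6 months. The 7 Con, SD mice (the controls) had received citrate buffer in place of streptozotocin and ate standard diet. The 6 STZ, SD mice had been injected with streptozotocin, a toxin of the pancreatic beta cells, at 65 mg/kg on 5 days at 10 to 16 weeks of age, and also ate standard diet. The 5 STZ, BEZ mice had received the same injections and, from 2 weeks later, ate diet with 0.25 or 0.5% (w/w) bezafibrate, a pan-PPAR agonist used to lower blood lipids, for 8 weeks. The labels do not say which animal had which bezafibrate content. The study's methods differ from the labels in the streptozotocin dose and in the controls, which they call untreated. For the ages and the bezafibrate content the methods give single values where the labels give ranges or alternatives. The labels are followed here. RNA was taken with a kit that retains short RNA and was treated with DNase before it was labelled. Liver and muscle were not analysed here.

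snoRNAs are short RNAs of the nucleolus, the site where ribosomal RNA is made. Box C/D snoRNAs pair with ribosomal RNA and bring the methyltransferase fibrillarin to the nucleotide that is to be methylated on its ribose, whereas H/ACA snoRNAs bring dyskerin, which turns a uridine into pseudouridine. A few members of both classes act in the cutting of the ribosomal RNA precursor instead. In mammals most snoRNAs are not transcribed on their own: they lie in introns of host genes, often genes of ribosomal proteins or of noncoding RNAs named Snhg, and are trimmed from the spliced intron by exonucleases. In mouse cells the snoRNAs within the Rpl13a gene have been tied to the response to lipid overload and oxidative stress.

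The array marks a snoRNA by a probe set inside its own short sequence, so the signal may come from the mature snoRNA or from host RNA in which the intron is still present, and these cannot be told apart here. Values are log2 signals, a difference of 1 is a change of 2-fold, and errors of differences are standard errors of the fit. Since the tissue is a mixture of cells, fewer cells of a type and less RNA per cell cannot be told apart.

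On the reference genome (RefSeq, GRCm38.p6) the box C/D snoRNAs were 45 to 148 bases long with a median of 68, and the H/ACA snoRNAs 61 to 205 bases with a median of 125. Of the 51, 50 lay within a longer gene, 40 host genes in all. Ribosomal protein genes held 21 of them in 16 hosts, noncoding RNA genes 12 in 9 hosts, and other protein-coding genes 17 in 15 hosts. The exception was Snord118, also called U8, which acts in the processing of large-subunit ribosomal RNA and is transcribed from its own promoter. The host itself had a probe set of its own on the array for 28 snoRNAs, in 24 hosts.

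Many host genes start transcription at a C within a run of pyrimidines (C and T), a feature by which growth signals control translation of ribosomal protein transcripts. The starts of the hosts are shown because the members lie in RNAs made from them. Of the 40 hosts, 31 had a promoter in the RefSeq table used here. A C at the annotated first base followed by C or T up to a run of 5 or more, searched on the strand of the gene alone, was found at a start of 6 of these 31 hosts (19.4%), against 813 of all 27025 genes in that table (3.01%). The 6 are printed 5′ to 3′ as 30 bases before the annotated start and 10 from it, with the pyrimidine run in capitals, and 2 further hosts follow whose run opens with T. The match is a description of these letters, and annotated starts can be off by some bases.
1110038B12Rik: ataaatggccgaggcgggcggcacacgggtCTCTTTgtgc (chr17:34952459-34952498, minus strand)
Gas5: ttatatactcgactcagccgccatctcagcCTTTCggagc (chr1:161035136-161035175, plus strand)
Gm36220: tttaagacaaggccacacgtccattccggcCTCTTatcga (chr11:106500885-106500924, plus strand)
Ipo7: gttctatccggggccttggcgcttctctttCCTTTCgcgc (chr7:110018285-110018324, plus strand)
Rack1: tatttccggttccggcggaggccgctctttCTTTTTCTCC (chr11:48800330-48800369, plus strand)
Rplp2: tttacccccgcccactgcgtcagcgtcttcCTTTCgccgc (chr7:141447621-141447660, plus strand)
Rpl27a: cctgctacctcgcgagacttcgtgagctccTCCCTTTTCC (chr7:109519165-109519204, plus strand)
Snhg12: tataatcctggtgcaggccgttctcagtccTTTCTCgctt (chr4:132308648-132308687, plus strand)
The hosts with a C-led run hold Snord52, Snord47, Snord104, Snora23, Snord95 with Snord96a, and Snora52, in this order. Rpl27a holds Snora3, and Snhg12 holds Snora16a and Snora44. Gas5 and 1110038B12Rik had 2 annotated starts each, of which the other carried no such run. Motif and change were not tested against each other.

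Genes typical of neighbouring tissues had high signals on some arrays. The mean signal of 17 pancreas genes was 5.75 to 6.08 on the Con, SD arrays and 5.73 to 5.92 on STZ, SD replicates 1 to 5, but 13.19 on STZ, SD replicate 6 and 8.68 to 11.40 on STZ, BEZ replicates 1 to 4. The mean of 13 epididymis and testis genes ran from 6.29 to 11.88 in the controls, from 5.25 to 11.89 in STZ, SD and from 5.29 to 5.88 in STZ, BEZ. Genes of white adipocytes (11 measured) were 11.93 to 12.60 in the controls, 10.24 to 12.43 in STZ, SD mice and 12.30 to 12.54 in STZ, BEZ, so the labelled tissue was present on every array. STZ, SD replicate 6 was lowest for adipocyte genes and also highest for lymphocyte genes, with a mean of 9.14 over 7 genes against 6.02 to 6.65 on the other STZ, SD arrays. In STZ, SD vs. Con, SD, 2 of the 11 adipocyte genes were called lower and 0 of the 17 pancreas genes were called. All 11 adipocyte differences were negative, with a median of −0.47, and all 17 pancreas differences were positive, with a median of 1.14. In STZ, BEZ vs. Con, SD, 5 pancreas genes were called higher and 2 of the 13 epididymis and testis genes lower. What part RNA of these tissues had in the snoRNA signals was not tested beyond the values given with the results.

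The first comparison asked which snoRNAs differ in the fat of diabetic mice. In STZ, SD vs. Con, SD, 44 of the 51 snoRNAs were called higher and 0 lower (limma, Benjamini-Hochberg adjusted p under 0.10 over 19938 genes), where 5.82% of all genes were called higher. All 51 differences were positive. Box C/D snoRNAs were called in 27 of 31 cases with a median difference of 0.68, and H/ACA snoRNAs in 17 of 20 cases with a median of 0.80, whereas the median over all genes was −0.03. The differences were mostly below 2-fold, which 5 snoRNAs exceeded: Snord104, Snora73a, Snora73b, Snord33 and Snora16a. For 25 snoRNAs, 12 box C/D and 13 H/ACA, the lowest STZ, SD array lay above the highest Con, SD array, which was true of 1.13% of all genes.

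**Figure D1:**
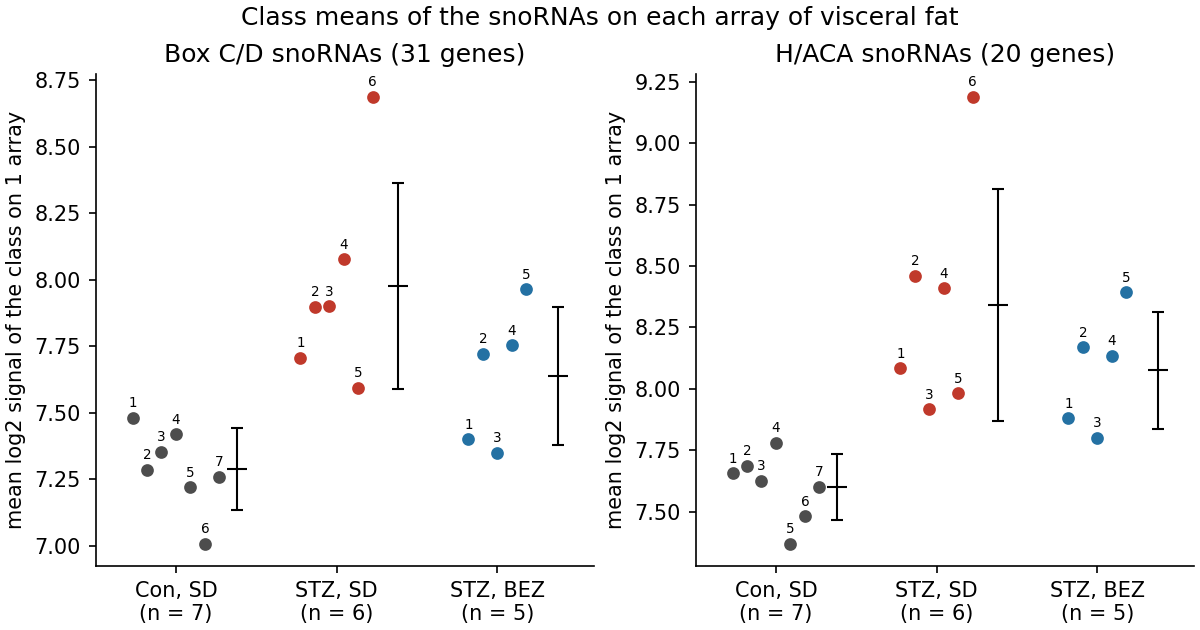
Mean log2 signal of the 31 box C/D (left) and 20 H/ACA snoRNAs (right) on each array, with 1 numbered point per mouse and the group mean ± SD as a bar. Every STZ, SD array lies above every Con, SD array in both classes, STZ, SD replicate 6 is the highest array, and the STZ, BEZ arrays overlap both other groups for box C/D but only the STZ, SD arrays for H/ACA snoRNAs.

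Averaged over the class, box C/D snoRNAs had a signal of 7.29 ± 0.15 (SD, n = 7) in the controls, 7.98 ± 0.39 (SD, n = 6) in STZ, SD mice and 7.64 ± 0.26 (SD, n = 5) in STZ, BEZ. H/ACA snoRNAs had 7.60 ± 0.14 (SD, n = 7), 8.34 ± 0.47 (SD, n = 6) and 8.08 ± 0.24 (SD, n = 5), respectively. The plot of class means shows that the Con, SD and STZ, SD arrays did not overlap in either class. STZ, SD replicate 6, the array with the highest pancreas and lymphocyte means, was the highest of its group for 41 of 51 snoRNAs. Without it, 41 snoRNAs were called higher in STZ, SD vs. Con, SD and 0 lower, where 9.54% of all genes were called higher in that fit, with medians of 0.60 for box C/D and 0.58 for H/ACA, while 49 of the 51 differences stayed positive and those of Snora41 and Snord118 turned negative.

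Among box C/D snoRNAs, Snord85 had the smallest p. Its signal was 6.03 to 6.52 (median 6.28) in the controls and 6.70 to 7.19 (median 6.88) in STZ, SD, and the STZ, BEZ arrays read 6.77, 6.65, 6.51, 6.63 and 6.62. The lowest STZ, SD array was above the highest Con, SD array, and the STZ, BEZ arrays sat between the group medians. The difference in STZ, SD vs. Con, SD was 0.68 ± 0.09 (limma adjusted p = 0.00514), 1.61-fold.

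Snord104 (chr11:106500991-106501063), in the noncoding gene Gm36220, showed the largest difference of the 51. Con, SD arrays gave 10.14 to 10.94 (median 10.58) and STZ, SD arrays 11.32 to 12.98 (median 11.90), with 11.61, 11.59, 10.82, 11.55 and 11.43 in STZ, BEZ. The diabetic and control arrays were separate, and STZ, BEZ replicate 3 alone of its group fell within the control range. The difference was 1.36 ± 0.22 (adjusted p = 0.00521), 2.57-fold.

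The sisters Snord42a and Snord42b share the host Rpl23a, a ribosomal protein gene, and rose together (chr11:78181302-78181346 and chr11:78183059-78183113). Snord42b was 7.46 to 7.86 (median 7.53) in the controls and 8.16 to 8.53 (median 8.39) in STZ, SD, and read 8.29, 8.70, 7.98, 8.46 and 8.77 in STZ, BEZ. Neither diabetic group overlapped the controls for this snoRNA. The differences were 0.78 ± 0.12 for Snord42b (adjusted p = 0.00514) and 0.97 ± 0.19 for Snord42a (adjusted p = 0.0122), and STZ, SD replicate 6 was the lowest array of its group for Snord42b but the highest for Snord42a.

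Snord33 (chr7:45126864-45126945) and Snord35a lie within Rpl13a. Snord33 went from 7.22 to 7.83 (median 7.69) in the controls to 8.16 to 9.48 (median 8.82) in STZ, SD, with 7.51, 8.28, 7.68, 8.38 and 8.74 in STZ, BEZ. All STZ, SD arrays exceeded all controls, and 2 STZ, BEZ arrays were within the control range. The differences in STZ, SD vs. Con, SD were 1.17 ± 0.23 for Snord33 (adjusted p = 0.0122) and 0.91 ± 0.24 for Snord35a (adjusted p = 0.0377), the latter named for its shared host.

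Snord61, in the Rbmx gene of the X chromosome, was 4.05 to 4.50 (median 4.25) in the controls and 4.62 to 5.05 (median 4.85) in STZ, SD and rose by 0.57 ± 0.11 (adjusted p = 0.0122). Of the box C/D snoRNAs with the dimmest probe sets, Snord38a rose by 0.48 ± 0.10 and Snord58b (Rpl17) by 0.46 ± 0.13, and of those with the brightest, Snord49b by 0.81 ± 0.17 and Snord57 by 0.55 ± 0.13, with adjusted p of 0.0158, 0.0522, 0.0151 and 0.0245. Rises were seen at all signal strengths: 7 of 9 snoRNAs with a mean signal under 6 were called, 17 of 21 between 6 and 8, and 20 of 21 over 8, with median differences of 0.48, 0.68 and 0.87. However, 8 snoRNAs, among them Snord58b, Snord38a and Snord61, lay below the 25th percentile of mean signal. Whether these were above background is not known.

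**Figure D2:**
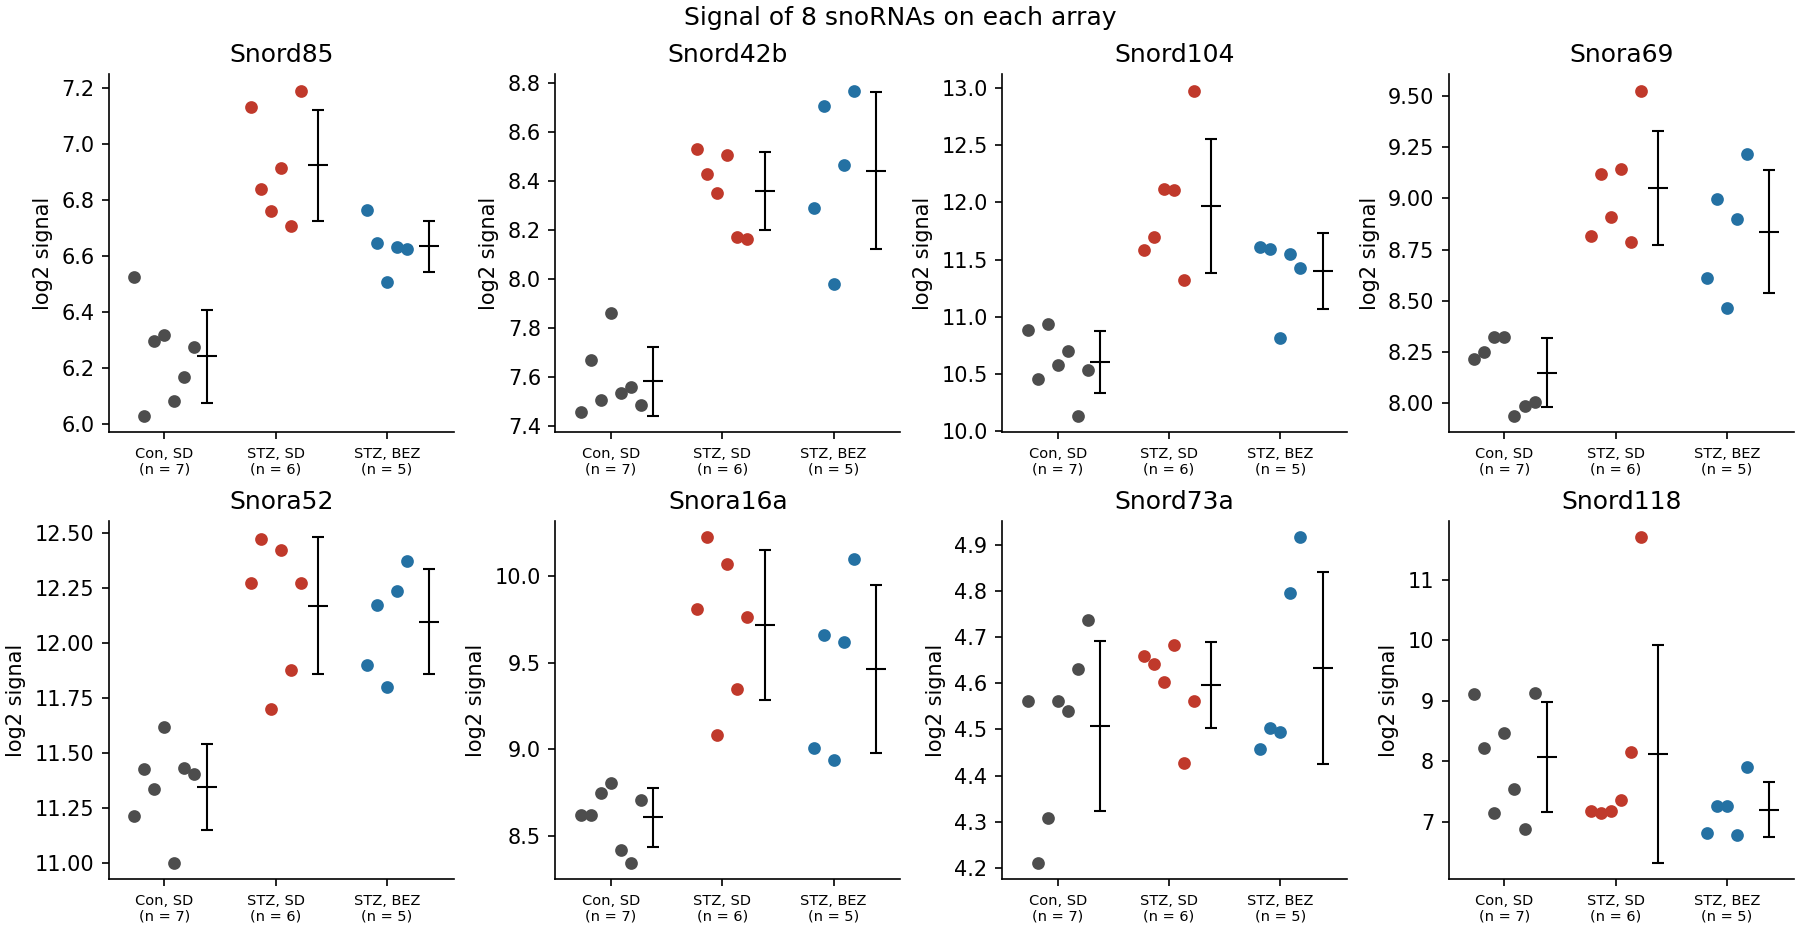
Log2 signal of 8 snoRNAs on each array of the 3 groups, with 1 point per mouse and the mean ± SD beside it, and with a scale of its own in each panel. The first 6 rise in STZ, SD with no overlap with Con, SD, Snord73a does not separate the groups, and Snord118 spreads from 6.79 to 11.71.

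Among H/ACA snoRNAs the smallest p was that of Snora69 (chrX:37082912-37083033) in the Rpl39 gene. Con, SD arrays read 7.94 to 8.32 (median 8.22) and STZ, SD arrays 8.79 to 9.53 (median 9.02), and the 5 STZ, BEZ arrays 8.61, 9.0, 8.46, 8.90 and 9.22. All 11 arrays of diabetic mice were above all controls. The difference in STZ, SD vs. Con, SD was 0.90 ± 0.13 (adjusted p = 0.00514).

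Snora52 (chr7:141448803-141448936), hosted by the ribosomal stalk protein gene Rplp2, had 11.00 to 11.62 (median 11.40) in the controls, 11.70 to 12.47 (median 12.27) in STZ, SD and 11.90, 12.17, 11.80, 12.24 and 12.37 in STZ, BEZ. Again no array of a diabetic mouse fell into the control range, and the difference was 0.82 ± 0.14 (adjusted p = 0.00551). Snora16a (chr4:132309465-132309600) in Snhg12 moved from 8.34 to 8.81 (median 8.62) in the controls to 9.08 to 10.23 (median 9.79) in STZ, SD, a difference of 1.11 ± 0.20 (adjusted p = 0.00733). Snora23 in the importin gene Ipo7 (0.50 ± 0.09, adjusted p = 0.00784), Snora20 in the chaperonin gene Tcp1 (0.90 ± 0.16, adjusted p = 0.00818) and Snora21 in Rpl23 (1.00 ± 0.18, adjusted p = 0.00867) rose as well.

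Snora73a and Snora73b, both within Snhg3, are H/ACA snoRNAs that serve in the cutting of the ribosomal RNA precursor. Snora73a read 7.97 to 8.50 in the controls and 8.71 to 11.90 in STZ, SD, and its difference of 1.26 ± 0.38 (adjusted p = 0.0584) had a wide error. The 11.90 came from STZ, SD replicate 6, and the other 5 STZ, SD arrays did not exceed 9.57. Without that array the difference was 0.79 ± 0.17 (adjusted p = 0.0113) for Snora73a and 0.81 ± 0.19 (adjusted p = 0.0159) for Snora73b. These are near-identical copies, so their probe sets may share signal, as may those of Snord15a with Snord15b, Snord42a with Snord42b and Snord49a with Snord49b. Snora73a and Snora73b were named after their values were seen.

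The remaining called snoRNAs ranged from 0.29 for Snord8 of Chd8 to 0.98 for Snord87 of Snhg6 in the box C/D class, and from 0.33 for Snora75 of Ncl, the nucleolin gene, to 0.96 for Snora33 of Rps12 in the H/ACA class, the last being 0.61 ± 0.14 without STZ, SD replicate 6. The 7 snoRNAs that were not called included Snora74a, Snord53, Snora70 and Snord14e, whose differences were as large as those of some called members but had larger errors. Snora74a differed by 0.58 ± 0.28, Snord53 by 0.50 ± 0.18 and Snora70 by 0.44 ± 0.16, with limma adjusted p of 0.243, 0.108 and 0.123. Snord14e, hosted by Hspa8, differed by 0.42 ± 0.15 (adjusted p = 0.114) and Snora41, hosted by Eef1b2, by 0.26 ± 0.24 (adjusted p = 0.596), or by −0.04 ± 0.08 without STZ, SD replicate 6. Without STZ, SD replicate 6 the differences were 0.28 ± 0.18 for Snora74a, 0.32 ± 0.13 for Snord53 and 0.26 ± 0.11 for Snora70. These, apart from Snora41, and Snord118 were named after their values were seen.

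Snord118 had the widest spread of the 51, with an SD of 1.80 in STZ, SD and 0.91 in Con, SD. Its control arrays gave 6.88 to 9.13 (median 8.23), its STZ, SD arrays 7.14 to 11.71 (median 7.27) and its STZ, BEZ arrays 6.81, 7.25, 7.26, 6.79 and 7.90. The groups overlapped, the value of 11.71 being that of STZ, SD replicate 6. The difference in STZ, SD vs. Con, SD was 0.05 ± 0.63 with a 95% interval from −1.27 to 1.36, which holds the class median, so a rise like that of the class was not resolved. Without replicate 6 the difference was −0.67 ± 0.37 (adjusted p = 0.289).

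Snord73a and its neighbour in the same gene had unlike differences, but Snord73a has one of the dimmest probe sets and whether it was above background is not known. It and Snord73b lie within the same ribosomal protein gene, Rps3a1 (chr3:86138791-86138858 and chr3:86140617-86140687). Snord73a read 4.21 to 4.74 (median 4.56) in the controls and 4.43 to 4.68 (median 4.62) in STZ, SD, while Snord73b read 7.85 to 9.12 (median 8.71) and 8.86 to 10.21 (median 9.63). Snord73b rose by 0.95 ± 0.22 (adjusted p = 0.0197), whereas Snord73a differed by 0.09 ± 0.10 with a 95% interval from −0.11 to 0.29, and the host Rps3a1 rose by 0.54 ± 0.17 (adjusted p = 0.0622). Of the 10 hosts that hold 2 of the snoRNAs each, this pair had the most unlike differences, 0.86 apart, while in 8 of the 10 pairs the members were within 0.30 of each other. Snora73a and Snora73b of Snhg3 were 0.01 apart.

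**Figure D3:**
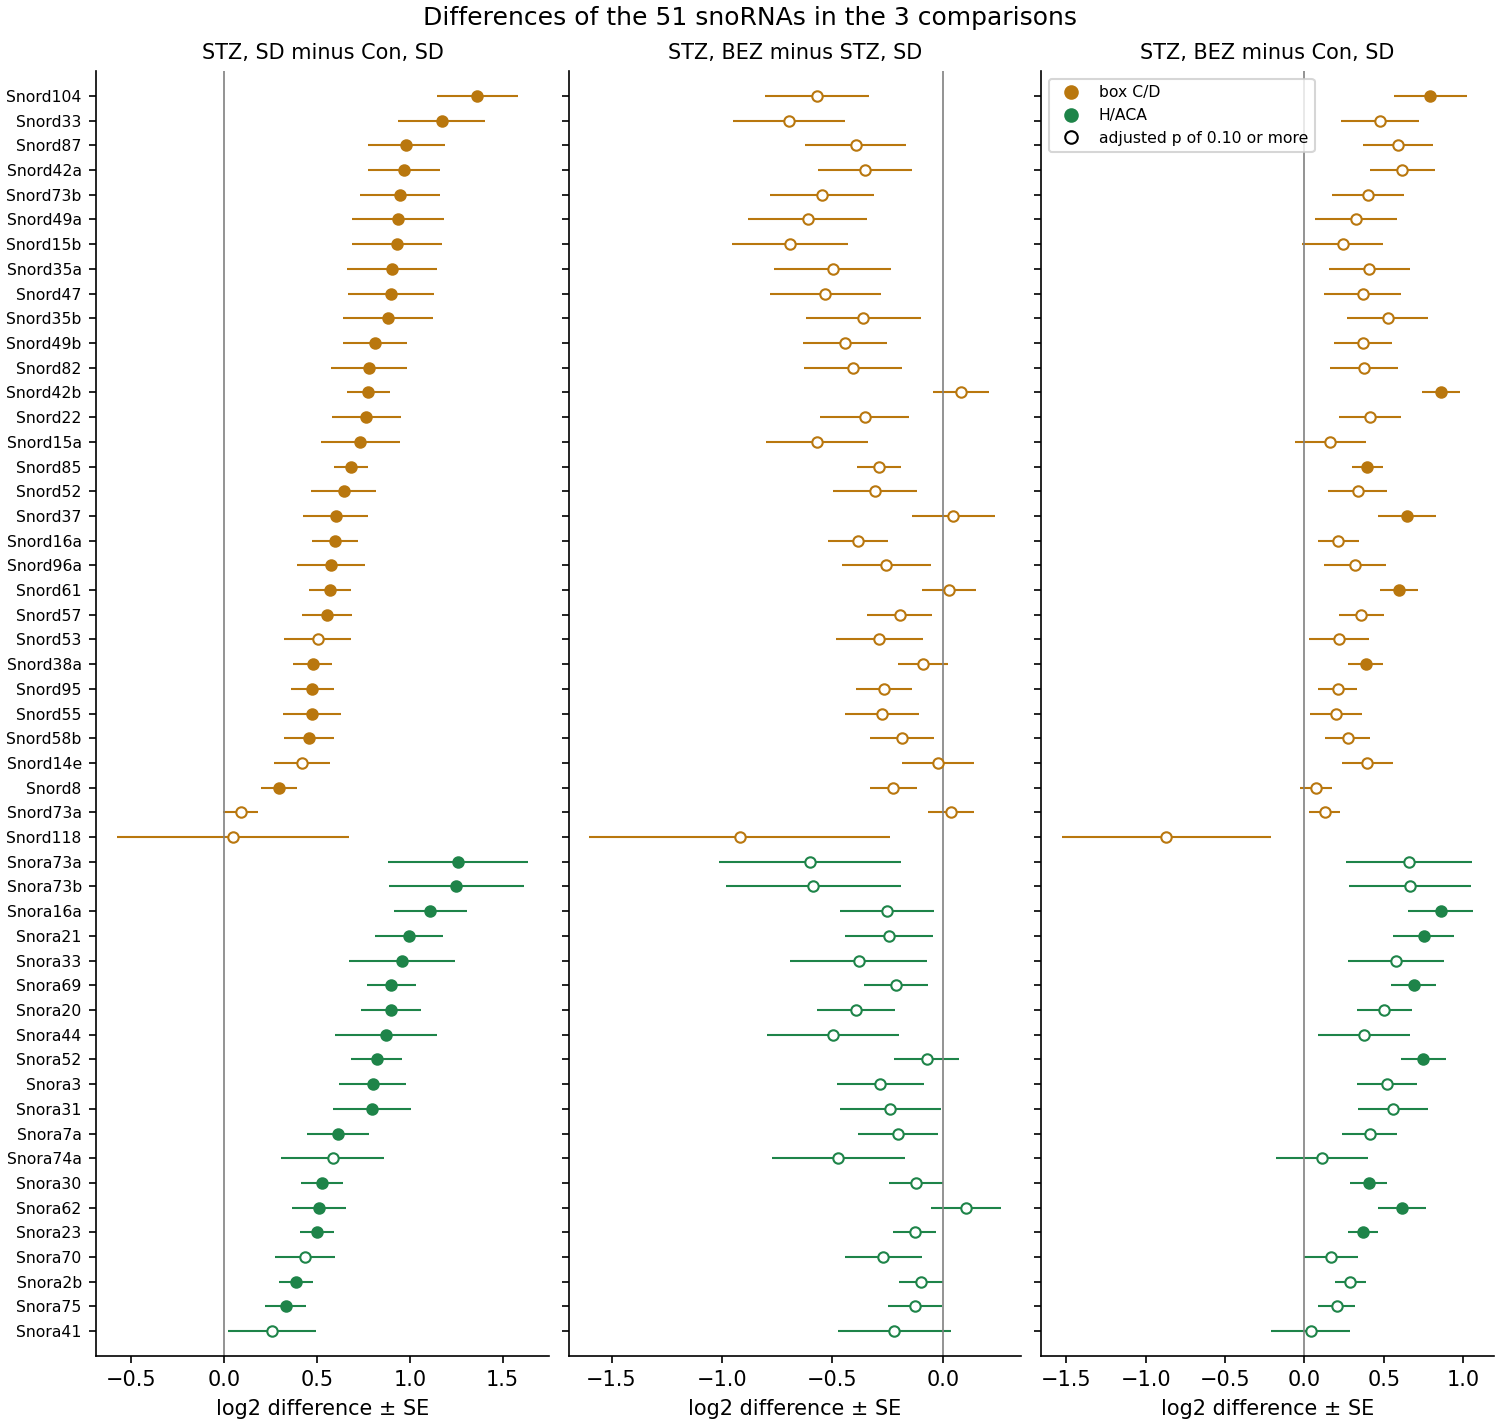
Log2 difference ± SE of each of the 51 snoRNAs in the 3 comparisons, in the order of STZ, SD minus Con, SD within each class. Filled points have a limma adjusted p under 0.10: 44 in the left panel, 0 in the middle and 13 in the right. All points of the left panel and 50 of the right lie right of 0, and 46 of the middle lie left of it.

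The second comparison asked how bezafibrate altered the snoRNAs of diabetic mice, and it uses the STZ, SD arrays of the first comparison again, so the signs of both are not independent. In STZ, BEZ vs. STZ, SD, 0 of the 51 snoRNAs were called by limma in either direction, where 0.0251% of all genes were called lower and 0.682% higher. By SAM the count was also 0. At an unadjusted p under 0.05, 11 box C/D snoRNAs and 1 H/ACA snoRNA were lower and 0 were higher, where 2.67% of all genes were lower and 7.54% higher, and 46 of the 51 differences were negative. The medians were −0.35 for box C/D and −0.24 for H/ACA snoRNAs against 0.01 over all genes. Without STZ, SD replicate 6, 5 snoRNAs were lower at an unadjusted p under 0.05, 44 differences were negative and the medians were −0.20 and −0.09. For 0 snoRNAs did all STZ, BEZ arrays lie below all STZ, SD arrays, which 0.451% of all genes did.

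The smallest p among box C/D snoRNAs were those of Snord85, with a difference of -0.29 ± 0.10 (limma adjusted p = 0.302), and Snord16a of the Rpl4 gene, with -0.38 ± 0.14 (adjusted p = 0.308). Snord16a read 7.32 to 7.80 (median 7.63) in the controls and 7.81 to 8.44 (median 8.29) in STZ, SD, and 7.66, 8.02, 7.51, 7.69 and 8.21 in STZ, BEZ, so 3 of the 5 treated arrays lay inside the control range. Among H/ACA snoRNAs they were Snora20, with -0.39 ± 0.18 (adjusted p = 0.456), and Snora44 of Snhg12, with -0.50 ± 0.30 (adjusted p = 0.628). Positive differences were those of Snora62 (0.10 ± 0.16), Snord42b (0.08 ± 0.13), Snord37 (0.05 ± 0.19), Snord73a (0.04 ± 0.10) and Snord61 (0.03 ± 0.12), none of them with a 95% interval that excludes 0.

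Pancreas signal differed between the arrays of this comparison. Of the STZ, BEZ arrays, replicate 5, with a pancreas mean of 5.86, was the highest of its group for 42 of 51 snoRNAs, and replicates 1 to 4 were rich in pancreas genes. STZ, SD replicate 6, with the highest pancreas mean of all, had the highest snoRNA means, but also the lowest adipocyte mean and the highest lymphocyte mean. On STZ, SD replicates 1 to 6, in this order, the adipocyte means were 12.36, 11.67, 11.51, 11.31, 12.43 and 10.24. The means of the 51 snoRNAs on the same arrays were 7.85, 8.12, 7.91, 8.21, 7.75 and 8.88. With the pancreas and epididymis means as covariates, 12 snoRNAs were called lower. The share of all genes called lower in that fit is not given here, so the 12 is a bare count. The medians there were −0.45 for box C/D and −0.40 for H/ACA snoRNAs. With the pancreas, adipocyte and lymphocyte means as covariates, 0 were called and the medians were 0.30 and 0.24. When the 5 arrays above a pancreas mean of 8 were left out, 0 were called and the medians were 0.13 and 0.21, but STZ, BEZ was then replicate 5 alone, the highest of its group, assumed to vary like the other groups, so these signs are those of 1 array. The part of pancreas RNA or of adipocyte content in the differences was not tested.

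**Figure D4:**
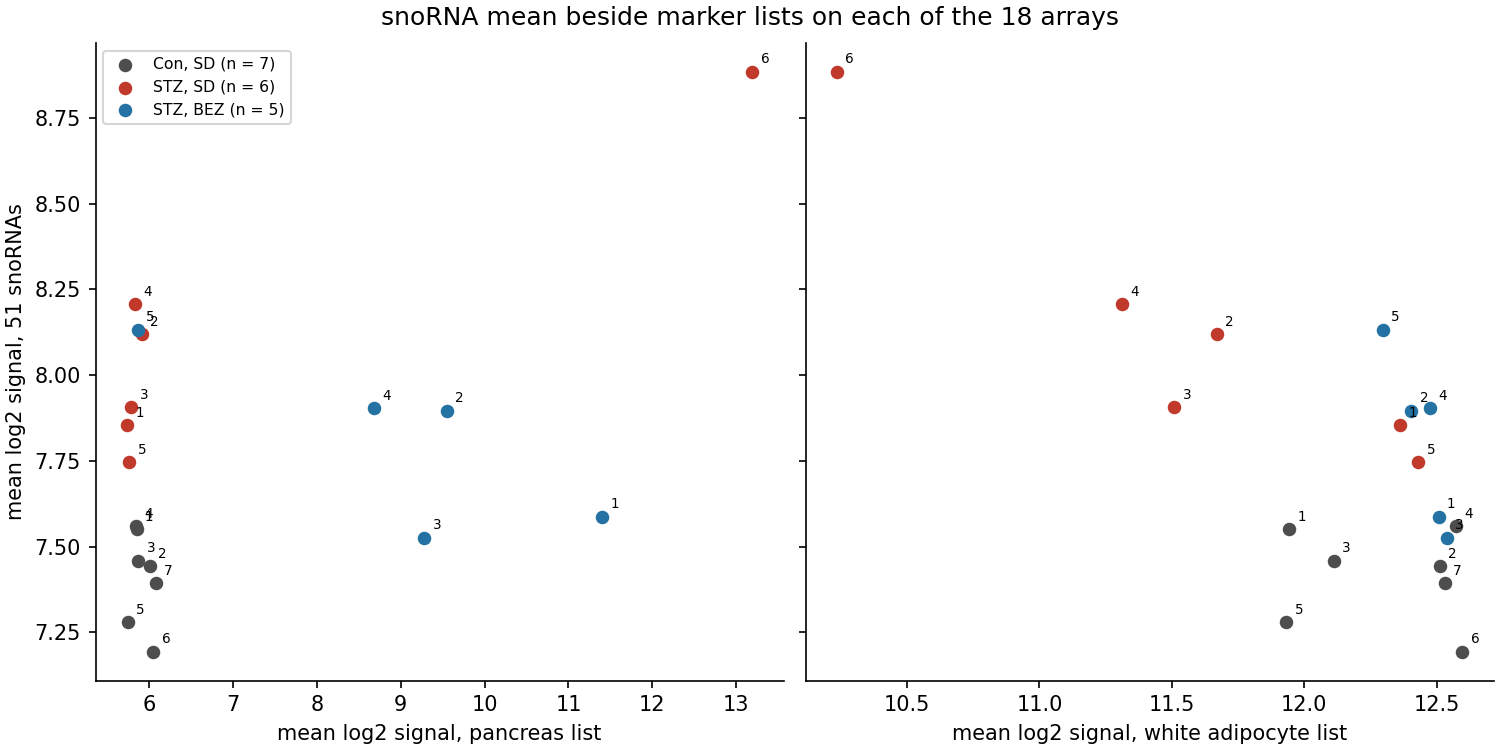
Mean log2 signal of the 51 snoRNAs on each of the 18 arrays (vertical axis) beside the mean log2 signal of 17 pancreas genes (left) and 11 white adipocyte genes (right), with points numbered by replicate. STZ, SD replicate 6 is at 13.19 for pancreas genes and STZ, BEZ replicates 1 to 4 are above 8, whereas replicate 5 of STZ, BEZ lies among the STZ, SD arrays.

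The third comparison asked which differences from non-diabetic mice were present under bezafibrate. It shares arrays with the other comparisons. In STZ, BEZ vs. Con, SD, 13 snoRNAs, 6 box C/D and 7 H/ACA, were called higher by limma and 0 lower, where 4.57% of all genes were called higher. Differences were positive for 50 of 51, Snord118 being the exception with -0.87 ± 0.66 and an adjusted p of 0.512. The medians were 0.37 for box C/D and 0.51 for H/ACA snoRNAs against −0.01 over all genes. In 9 snoRNAs, 2 box C/D and 7 H/ACA, all STZ, BEZ arrays were above all controls, a pattern seen in 5.17% of all genes.

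Snord42b led this comparison with 0.86 ± 0.12 (limma adjusted p = 0.00211). It was followed among box C/D snoRNAs by Snord61 (0.60 ± 0.12, adjusted p = 0.0134), Snord85 (0.39 ± 0.10, adjusted p = 0.0371), Snord37 in the elongation factor gene Eef2 (0.65 ± 0.18, adjusted p = 0.064), Snord38a (0.39 ± 0.11, adjusted p = 0.0648) and Snord104 (0.79 ± 0.23, adjusted p = 0.0685). Snord37 read 4.18 to 5.12 (median 4.68) in the controls and 5.07, 5.71, 4.79, 5.32 and 5.77 on the STZ, BEZ arrays, with 2 of these within the control range.

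Of the H/ACA class, Snora52 rose by 0.75 ± 0.14 (adjusted p = 0.0108), Snora69 by 0.69 ± 0.14 (adjusted p = 0.0145) and Snora16a by 0.86 ± 0.21 (adjusted p = 0.0326). Snora62, hosted by the ribosomal protein gene Rpsa, rose by 0.61 ± 0.15 (adjusted p = 0.0371), from 6.22 to 6.65 (median 6.48) in the controls to 6.89, 7.30, 6.71, 7.06 and 7.48 in STZ, BEZ. Snora21 (0.75 ± 0.19), Snora23 (0.37 ± 0.09) and Snora30 of the Srcap gene (0.40 ± 0.12) completed the list, with adjusted p of 0.0431, 0.041 and 0.0712, of which Snora30 was named after its value was seen.

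The count of this comparison rested on single arrays. It was 4 without STZ, BEZ replicate 2, 8 without replicate 4, 5 without replicate 5 and 23 without STZ, SD replicate 6, which enters through the shared estimate of spread, and whose removal raised the share of all genes called higher to 7.94%. The shares of all genes in the fits without an STZ, BEZ array are not given here. Without the 5 pancreas-rich arrays the medians were 0.69 for box C/D and 0.93 for H/ACA snoRNAs. STZ, BEZ was then replicate 5 alone, the highest of its group for 42 of 51 snoRNAs, so these are values of 1 array. With the pancreas and epididymis means as covariates 8 of the 51 were called, 6 higher and 2 lower. In that fit 2202 of 19938 genes were called higher, so the share of snoRNAs called higher was near that of all genes. The share of all genes called lower is not given here. The medians were 0.18 and 0.16. SAM, the test of the study's methods, called 36, 35 of them higher, beside 3128 of all genes called higher. Across the 3 groups, the mean of Con, SD was lowest, that of STZ, BEZ between and that of STZ, SD highest for 45 of 51 snoRNAs (88.2%), against 16.1% of all genes, an order that follows from the signs given above and was not tested.

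The host genes were then set beside the snoRNAs that they hold. In STZ, SD vs. Con, SD, 14 of the 24 measured hosts were called higher and 0 lower, where 5.82% of all genes were called higher. The median difference was 0.27 over hosts against 0.60 over the 28 snoRNAs. In 26 of the 28 pairs the difference of the snoRNA exceeded that of the host. Host probe sets were brighter, with means per array of 10.09 to 10.65 over the 24 hosts against 7.19 to 8.88 over the 51 snoRNAs. Whether log2 differences are on 1 scale at such unlike signals was not tested, so the sizes within a pair are a description. In 15 pairs both were called higher, and in 8 the snoRNA alone was. The 2 exceptions were Snord73a with Rps3a1 and Snora41 with Eef1b2, a translation elongation factor gene whose difference was 0.45 ± 0.14.

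**Figure D5:**
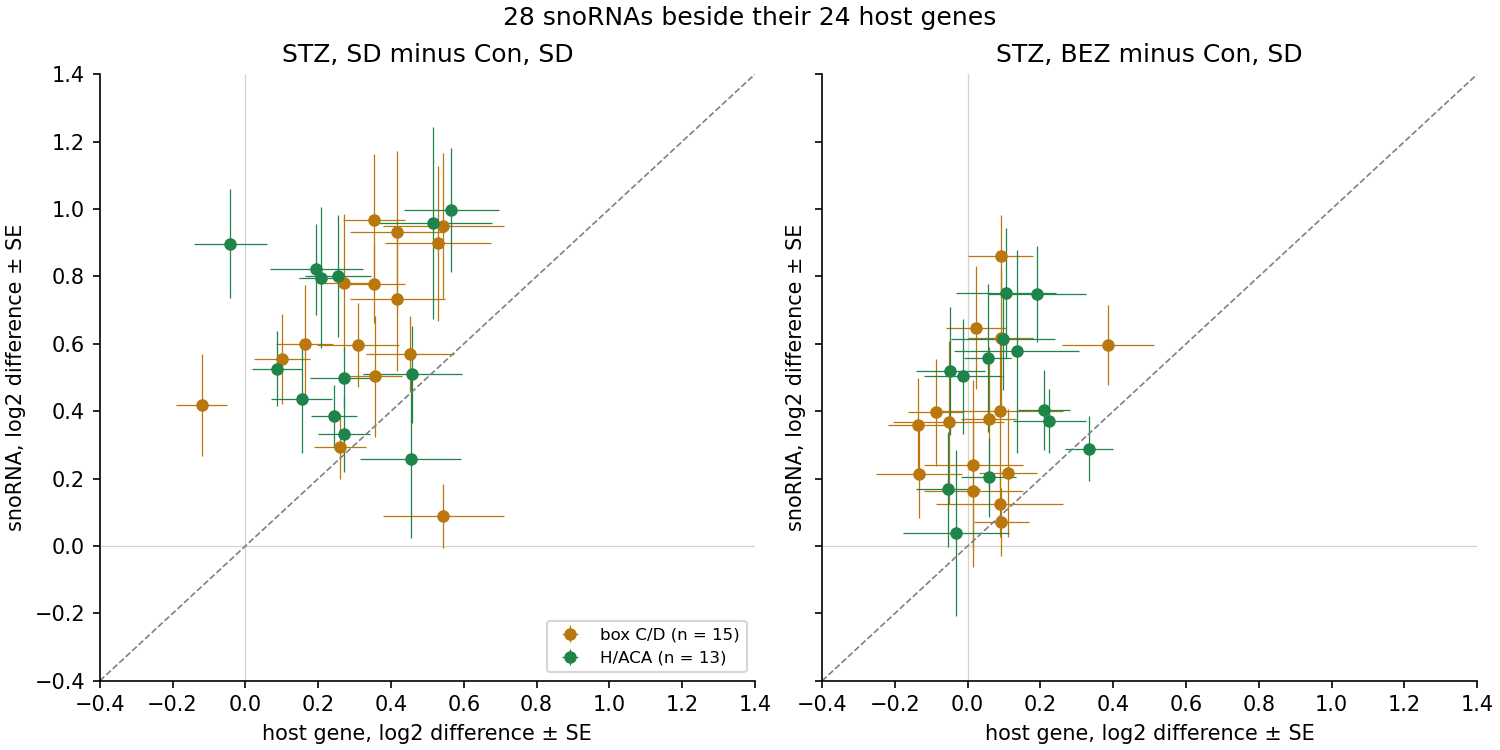
Log2 difference ± SE of each of 28 snoRNAs (vertical axis) against that of its host gene (horizontal axis) in STZ, SD minus Con, SD (left) and STZ, BEZ minus Con, SD (right), for 24 hosts, with equal differences on the dashed line. In both panels 26 of 28 points lie above the line, and the host differences centre on 0.27 in the left panel and 0.07 in the right.

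The pairs differed in size. Snora20 rose by 0.90 ± 0.16 while its host Tcp1 differed by -0.04 ± 0.10 (adjusted p = 0.866), the widest gap among the pairs. Snora52 rose by 0.82 ± 0.14 and Rplp2 differed by 0.19 ± 0.13 (adjusted p = 0.441). Snord57 rose by 0.55 ± 0.13, while Nop56, its host and itself a core protein of box C/D particles, differed by 0.10 ± 0.08 (adjusted p = 0.525).

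Other hosts moved with their snoRNAs. Rpl23, the host of Snora21, rose by 0.57 ± 0.13 (adjusted p = 0.0206), Rpl23a by 0.35 ± 0.09 (adjusted p = 0.0256), Rbmx, the host of Snord61, by 0.45 ± 0.12 (adjusted p = 0.0375) and Rpsa, the host of Snora62, by 0.46 ± 0.14 (adjusted p = 0.057). Kansl2, the host of Snora2b, rose by 0.24 ± 0.06 (adjusted p = 0.0322). Ipo7, Eef2 and Rpl4 differed by 0.27 ± 0.09, 0.16 ± 0.08 and 0.31 ± 0.11, with adjusted p of 0.101, 0.249 and 0.115.

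By kind of host, snoRNAs in noncoding genes had the largest median difference in STZ, SD vs. Con, SD, 0.92 with 11 of 12 called, followed by those in ribosomal protein genes with 0.80 and 19 of 21 called and those in other protein-coding genes with 0.53 and 14 of 17 called. These medians were not tested against each other. Ribosomal protein genes as such (50 measured) had a median of 0.29, with 25 called higher and 1 lower, where 5.82% of all genes were called higher.

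With bezafibrate the hosts had smaller differences from the controls than the snoRNAs. In STZ, BEZ vs. Con, SD, 1 of 24 hosts was called higher, Kansl2 with 0.33 ± 0.07 (adjusted p = 0.0124). This is 4.17% of the hosts, near the 4.57% of all genes called higher. The median over hosts was 0.07 against 0.39 over the 28 snoRNAs. In 26 of 28 pairs the snoRNA difference was the larger, and in 8 pairs the snoRNA but not the host was called. The medians in STZ, BEZ vs. STZ, SD were −0.22 over hosts and −0.23 over snoRNAs, 0 hosts were called, and 16 hosts were lower at an unadjusted p under 0.05, as were 2.67% of all genes.

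Of the proteins that make up the particles, Dkc1, the pseudouridine synthase dyskerin of H/ACA particles, rose by 0.63 ± 0.17 (adjusted p = 0.045) and Nop58, a scaffold of box C/D particles, by 0.37 ± 0.10 (adjusted p = 0.0375) in STZ, SD vs. Con, SD. The other 6 core proteins were not called. Fbl, the methyltransferase fibrillarin, differed by 0.31 ± 0.11, Gar1 by 0.39 ± 0.14, Nop10 by 0.12 ± 0.09, Snu13 by 0.05 ± 0.09, Nop56 by 0.10 ± 0.08 and Nhp2 by -0.20 ± 0.10. In STZ, BEZ vs. Con, SD, Dkc1 was higher by 0.91 ± 0.18 (adjusted p = 0.0139) and Nhp2 lower, with -0.34 ± 0.10 (adjusted p = 0.091). Dkc1 itself carries H/ACA snoRNAs in its introns, which were not among the 51.

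Of 12 genes for the assembly of the particles, 0 were called in STZ, SD vs. Con, SD by limma, 1 at an unadjusted p under 0.05, and their median was 0.04. Znhit3, one of them, was higher in STZ, BEZ vs. Con, SD with 0.23 ± 0.07 (adjusted p = 0.0957). Of 19 genes for the trimming and turnover of snoRNAs, 6 were called higher and 0 lower in STZ, SD vs. Con, SD, where 5.82% of all genes were called higher. Their median was 0.19. The called ones were led by Xrn1, an exonuclease of the cytoplasm (0.36 ± 0.08, adjusted p = 0.0229), the exosome subunits Exosc2 (0.28 ± 0.08, adjusted p = 0.0374) and Exosc8 (0.31 ± 0.10, adjusted p = 0.0724), and Aqr, a helicase that links splicing to snoRNA release (0.27 ± 0.08, adjusted p = 0.0532).

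Of 21 genes for ribosomal RNA transcription and the nucleolus, 7 were called higher and 1 lower, where 5.82% of all genes were called higher. Their median was 0.09. Taf1d, a subunit of the promoter selectivity factor of RNA polymerase I and a host of snoRNAs, rose by 0.66 ± 0.11 (adjusted p = 0.00551), and Myc, a transcription factor that drives ribosome production, by 1.08 ± 0.25 (adjusted p = 0.0207). Wdr43, a ribosome biogenesis factor and the host of Snord53, rose by 0.35 ± 0.08 (adjusted p = 0.0149) and Utp15, of the same machinery, by 0.32 ± 0.07 (adjusted p = 0.0185). Taf1d and Myc were also higher in STZ, BEZ vs. Con, SD, by 0.85 ± 0.11 (adjusted p = 0.00161) and 0.93 ± 0.26 (adjusted p = 0.0646).

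Other short RNAs on the array were read for comparison. Of 3 scaRNAs, which guide the same modifications on spliceosomal RNA in Cajal bodies, 2 were called higher in STZ, SD vs. Con, SD, Scarna17 by 0.92 ± 0.25 (adjusted p = 0.0373) and Scarna13 by 0.52 ± 0.17 (adjusted p = 0.08). Of 291 microRNA genes 6 (2.06%) were called higher and 0 lower, below the 5.82% of all genes called higher, with a median of −0.003. Of 5 genes of U RNAs 0 were called by limma, with 0 at an unadjusted p under 0.05 and a median of 0.15. These were Rnu12, Rnu5g and Rnu6 of the spliceosome, Rnu7 of histone mRNA processing and Rnu3a, which is itself a box C/D RNA of the nucleolus, outside the naming rule of the 51, and differed by 0.56 ± 0.38 (adjusted p = 0.458). These lists were not tested against the snoRNAs. Means per array were lower, at 5.31 to 5.56 over the microRNA genes and 4.99 to 5.93 over the U RNA genes. Over the 51 snoRNAs they were 7.19 to 8.88. Whether a rise could be resolved at the lower signals was not tested.

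The spread of the snoRNAs between mice had a higher median in the diabetic groups, which was not tested. The median SD over the 51 was 0.19 in the controls, 0.44 in STZ, SD and 0.30 in STZ, BEZ, beside 0.19, 0.24 and 0.13 over all genes. Without replicate 6 the median SD in STZ, SD was 0.25, and the SD of the class means there was 0.19 for box C/D and 0.25 for H/ACA snoRNAs. Calls in STZ, SD vs. Con, SD nevertheless depended little on single arrays: leaving out each of the 18 arrays in turn gave 36 to 46 called snoRNAs, and 32 of the 44 were called in all 18 of these fits. With the pancreas, adipocyte and lymphocyte means as covariates, 32 were called higher, and the share of all genes in that fit is not given here. The medians there were 0.40 for box C/D and 0.50 for H/ACA snoRNAs.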

How the data were processed

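Visceral fat RNA of 18 mice was measured on Affymetrix Mouse Gene ST arrays. Per the labels the authors summarised the arrays by RMA in Expression Console 1.2, which corrects background, normalises between arrays and combines the probes of a set, and the deposited values are log2 signals of 35556 probe sets. All 18 columns were used. Array data have no read depth, so the number of arrays limits the precision. Of the probe sets, 21789 have a single symbol in the platform table. The one with the highest mean was kept per gene (19938 genes).

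Groups came from the treatment given in the labels. limma 3.58.1 (R 4.3.3) was fitted over all 18 arrays with a mean per group and moderated variances (15 residual and 2.44 prior degrees of freedom), p was adjusted by Benjamini-Hochberg over all genes, and an adjusted p under 0.10 was called, after the study's false discovery rate of 10%. The p-values measure the spread between these mice. SAM was written anew with 100 permutations. Both were tested on simulated data. Hosts are RefSeq genes whose span contains the snoRNA. Strand could not be used for this, and for Snord47, Snord8 and Snord87 the host was settled by name. Promoter windows are those of RefSeq (GRCm38.p6). The members, lists and tests were chosen with earlier results of these data known.

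Named snoRNAs are, per comparison and class, up to 6 called ones with the smallest p (or the 2 smallest), the 3 highest and 2 lowest mean signals, hosts of these, core proteins, up to 4 called genes of each other list, and the most unlike pair of 1 host. Replicate numbers did not pair the samples: over 16 pairs of arrays with the same number, 2 correlations of deviations from the group means were over 0.1 (range −0.36 to 0.70). Alternatives were another test, threshold, probe set rule, filter, normalisation, variance model, weights, covariates, a replicate block and leaving out arrays. The snoRNA sequences themselves were not used here. The hosts of some snoRNAs are not reported here.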

Additional observations from a re-analysis of the deposited data

Results flagged for a closer look

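Within each group of 5 to 7 arrays, an array was marked where its gap to the nearest other, divided by the range of the group, was above Dixon's 95% value. Of 81 sets tested (27 measures, namely the snoRNAs under the naming rule and the class means, in 3 groups), 3 were marked, 3.7%, and chance marks about 1 in 20 groups. STZ, SD replicate 6 was the highest array for Snora7a with a signal of 11.91, where the next was 11.10, and for Snora41 with 7.13, where the next was 5.51. This is the array with the highest pancreas and lymphocyte means, and without it Snora7a differed by 0.43 ± 0.11 (limma adjusted p = 0.0242) and Snora41 by −0.04 ± 0.08 (adjusted p = 0.788) in STZ, SD vs. Con, SD. STZ, BEZ replicate 3 was the lowest array for Snord104 with 10.82, where the next was 11.43.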

How the results depend on the processing

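In STZ, SD vs. Con, SD, the count of 44 called snoRNAs lay between 31 and 47 under the 16 alternatives beside leaving out arrays, except for 27 with the replicate number as a block, and no difference of a called snoRNA changed sign under these alternatives or the 18 left-out arrays. With the replicate block the counts were 0 in STZ, BEZ vs. STZ, SD and 9 in STZ, BEZ vs. Con, SD, and since the numbers did not pair the arrays this is given as a description. Leaving out each array gave 36 to 46 called snoRNAs, with class medians of 0.60 to 0.73 for box C/D and 0.58 to 0.90 for H/ACA. A total of 12 of the 44 calls were lost in at least 1 of these fits. The shares of all genes called under these alternatives are not given here, so the range of counts is a description.

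The count in STZ, BEZ vs. STZ, SD stayed at 0 except with the pancreas and epididymis means as covariates, when 12 were called lower. That 12 is not set against the share of all genes in the same fit. Leaving out each array gave counts of 0 to 0, with medians of −0.44 to −0.20 for box C/D and −0.33 to −0.09 for H/ACA. The count of 13 in STZ, BEZ vs. Con, SD became 36 by SAM (35 higher, 1 lower), 26 with array weights and 26 with only the arrays compared. The shares of all genes called with array weights and with only the arrays compared are not given here, so these are bare counts. With the pancreas and epididymis means as covariates it was 8 (6 higher, 2 lower), and the H/ACA median was 0.16. The share called higher in that fit was near that of all genes. Leaving out each array gave 4 to 23, with medians of 0.29 to 0.45 and 0.40 to 0.59, and 4 of the 13 calls were kept in all of these fits.

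The following 2 alternatives were chosen after seeing the data. Without the 5 arrays rich in pancreas genes, the medians for box C/D and H/ACA were 0.13 and 0.21 in STZ, BEZ vs. STZ, SD and 0.69 and 0.93 in STZ, BEZ vs. Con, SD, with 1 STZ, BEZ array left. With the pancreas, adipocyte and lymphocyte means as covariates, the box C/D median was 0.40 in STZ, SD vs. Con, SD. The medians were 0.30 and 0.24 in STZ, BEZ vs. STZ, SD. In STZ, BEZ vs. Con, SD, that fit called 36, with no share of all genes given here, and the box C/D median was 0.69. The cause of these shifts was not tested. The deposited values give no background level, and 8 of the 51 snoRNAs lay below the 25th percentile of mean signal, so whether these were above background is not known.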

Other observations

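The 41 probe sets that carry a snoRNA symbol beside other symbols were not among the 51 and fell into 2 kinds. Of these, 24 belong to the Snord116 family, orphan box C/D snoRNAs of an imprinted locus that is deleted in Prader-Willi syndrome, and these 24 held 7 distinct sets of values, 18 of them being identical. The signal of the 18 identical ones ran from 7.31 to 9.41 in the controls, from 7.15 to 9.80 in STZ, SD mice and from 5.74 to 9.34 in STZ, BEZ. The difference of the 18 in STZ, SD vs. Con, SD was −0.30 ± 0.53 (limma adjusted p = 0.801), with a 95% interval from −1.41 to 0.81.

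The other 17 probe sets all had a positive difference, with a median of 0.40, and 13 were called higher and 0 lower, where 7.95% of all 35556 probe sets were called higher. These counts hold some measurements more than once. The probe sets of Snord1b with Snord1c had identical values and were called, and those of Snora19 with Mir3084 were identical and not called. Those of Snord14c and Snord14d with Hspa8 nearly coincided (0.390 and 0.393) and were called. Snord32a and Snord34, which with Snord33 and Snord35a make up the set within Rpl13a, differed by 0.93 ± 0.21 (adjusted p = 0.0149) and 1.06 ± 0.27 (adjusted p = 0.0283), Snord68 of Rpl13 by 1.38 ± 0.26 (adjusted p = 0.00872), Snora24 of Snhg8 by 1.01 ± 0.17 (adjusted p = 0.00621) and the probe set shared by Snora34 and Mir1291 by 1.06 ± 0.14 (adjusted p = 0.00404). Several of these carry the symbol of the host as well, so they cannot separate snoRNA from host. They were named after their values were seen.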
